A study of Homo sapiens with 6 samples.

Results

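Expression of 9 genes in the pathway of the transcription factor p53 was followed in total RNA sequencing of a human neuroblastoma cell line. They were taken by name as established p53 target genes or p53 inhibitors, namely *MDM2*, *MDM4*, *GDF15*, *BBC3*, *PMAIP1*, *BAX*, *SESN1*, *TP53INP1* and *ZMAT3*, and all 9 of 9 were found among the 60651 genes counted. The series held 6 libraries, 3 with titles naming the vehicle ethanol (EtOH) and 3 with titles naming tetracycline (Tet), given for 5 days. The sources disagree on the cell model. IMR-5/75, a *MYCN*-amplified line, stands in the titles and file headers, and a sample tag reads knockdown. The growth protocol instead gives single clones of SK-N-SH carrying a tet repressor and tetracycline-driven *MYCN*, kept under G418 and blasticidin in both groups. In the study's methods, *MYCN* was knocked down inducibly in IMR-5/75 and expressed inducibly in SK-N-AS. Libraries are therefore called by their label, and a direction is a direction between labels only.

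p53 is held at a low level in unstressed cells, largely by MDM2, a ubiquitin ligase that marks it for degradation and that p53 itself induces. MDM4, the close relative of MDM2, binds and blocks the activating domain of p53 and pairs with MDM2. DNA damage or other stress releases p53, which then switches on genes for growth arrest, cell death, repair and antioxidant defence. Most neuroblastomas keep an intact p53 gene at diagnosis, and *MDM2* has been described as a transcriptional target of MYCN.

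The question asked of these genes was whether the p53 response differed between cells labelled Tet and EtOH. In the planned edgeR test no listed gene passed the threshold. DESeq2, which called 346 genes higher over all genes tested, called *TP53INP1* alone of those listed. *TP53INP1*, which codes for a p53-induced nuclear protein that promotes cell death and autophagy, came nearest by edgeR, with 273 ± 29.3 CPM in libraries labelled Tet against 154 ± 17.3 CPM in those labelled EtOH (SD, n = 3 each). CPM are depth-scaled counts. *SESN1* was also higher in every Tet library than in any EtOH library, *MDM2* and *PMAIP1* had positive differences within the spread between replicates, and *MDM4* and *ZMAT3* were near 0. The other pattern was one of level. *MDM4*, *PMAIP1*, *TP53INP1* and *MDM2* were abundant, whereas *BAX* was low and *BBC3* and *GDF15* were close to absent in all 6 libraries. These low genes are rich in GC, and across all genes tested those rich in GC had low levels as well. The part of GC content in this pattern was not tested.

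Promoter sequences are shown for the genes with a match to the p53 response element consensus near a transcription start, since p53 binds DNA through such elements. RefSeq promoter windows on GRCh38.p14, from 250 bases before to 50 bases after a start, were searched for 8 members, with 14 windows in all. *TP53INP1* was left out of this search of the members, so nothing is said here about its promoter. The p53 response element consensus, a pair of half-sites of 10 bases with an invariant C and G in each, was searched with a spacer of 0 to 13 bases and at most 3 mismatches outside the C and G. As the consensus is its own reverse complement, 1 search covers both strands. A match was found in 6 windows of 5 members. Over all 35116 windows of the same length, 12.8% held a match with at most 3 mismatches and 2.93% one with at most 2, so a match alone is common.

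*MDM2* has separate upstream and internal starts, and the match lay in both windows of the internal starts. There were 2 mismatches and no spacer (0 bases), at chr12:68808923-68808942 on the plus strand, 94 bases before the first of these starts. The 250 bases before this start, chr12:68808767-68809016, are printed with the matched half-sites in capitals, and those of *SESN1* (minus strand, chr6:109008989-109009238) and *PMAIP1* (plus strand, chr18:59899746-59899995) follow.
MDM2: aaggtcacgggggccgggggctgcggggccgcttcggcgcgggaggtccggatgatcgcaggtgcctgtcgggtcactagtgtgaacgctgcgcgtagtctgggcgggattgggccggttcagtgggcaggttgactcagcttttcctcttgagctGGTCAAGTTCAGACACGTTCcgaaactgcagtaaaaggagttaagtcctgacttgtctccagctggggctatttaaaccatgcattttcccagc
SESN1: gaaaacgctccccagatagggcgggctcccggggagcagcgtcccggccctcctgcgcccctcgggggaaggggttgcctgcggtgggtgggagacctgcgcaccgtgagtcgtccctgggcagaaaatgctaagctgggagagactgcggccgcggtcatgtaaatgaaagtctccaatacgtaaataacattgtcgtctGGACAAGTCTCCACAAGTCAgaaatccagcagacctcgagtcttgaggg
PMAIP1: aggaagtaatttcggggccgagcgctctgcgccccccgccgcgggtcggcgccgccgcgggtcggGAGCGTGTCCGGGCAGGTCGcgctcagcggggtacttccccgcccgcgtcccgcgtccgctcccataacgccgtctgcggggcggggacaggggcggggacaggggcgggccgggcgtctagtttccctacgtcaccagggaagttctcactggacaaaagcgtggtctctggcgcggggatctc
The *SESN1* match, with 3 mismatches, began 49 bases before the start nearest the 3′ end of the gene, and the other 2 *SESN1* windows held none. The *PMAIP1* match, also with 3 mismatches, began 185 bases before the start. Matches of 3 mismatches also lay in the windows of *ZMAT3*, with a spacer of 6 bases, and *GDF15*, inside the transcribed part, and for these only the matched bases are given, with the spacer in lower case.
ZMAT3: GGGCCTGCTCcgccaaGCACATGCGC
GDF15: AGCCATGCCCGGGCAAGAAC
The *ZMAT3* match lies at chr3:179071867-179071892 on the minus strand and begins 83 bases before a start. The *GDF15* match lies at chr19:18386186-18386205 on the plus strand and begins at base 29 of the transcript. No match within 3 mismatches was found in the windows of *MDM4*, *BBC3* and *BAX* or before the upstream starts of *MDM2*, which says only that these letters are not in these windows. A match is a description of the sequence and not a measurement of binding.

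The libraries held between 27933378 and 40498065 counts, so 3 counts correspond to 0.0741 to 0.107 CPM. CPM are counts scaled to a common library total after TMM, a scaling that assumes most genes do not differ. EtOH replicate 2 stood apart from the other EtOH libraries along the first principal component, which held 44.7% of the variance, with a score of 84.2 against -55.0 and -37.0. Tet replicate 2 (47.3) lay on the same side. Along the second component, with 25.7% of the variance, the labels lay apart, with scores of -39.1 to -34.7 in EtOH and 26.4 to 48.1 in Tet. *MYCN* itself, the gene the system was built to change, had 158, 256 and 156 CPM under EtOH and 197, 200.1 and 145 CPM under Tet, in replicate order. Its groups overlapped, with a log2 fold change of -0.07 (adjusted p = 0.956 by edgeR, SE 0.23), so the labels could not be checked against it. Of 5 markers of noradrenergic neuroblastoma cells, *GATA3*, *HAND2* and *ISL1* were present in all libraries, whereas *TH* was at 0 counts in 5 of 6 libraries and *DBH* did not exceed 0.453 CPM. Their summed level was 354 to 439 CPM in EtOH and 496 to 563 CPM in Tet. Of those tested, *GATA3* (mean 247 CPM in EtOH, 316 CPM in Tet) and *ISL1* (49.3 and 111 CPM) lay wholly higher in Tet, where 9.21% of all genes did. *HAND2* (log2 fold change -0.14) went the other way, with groups that overlapped. *TH* and *DBH* are rich in GC, at 66.8% and 61.5% of exon bases. Of 12 mesenchymal and fibroblast markers, *COL1A2* and *TWIST2* were at 0 in all libraries, and the summed level of the list was 306 to 538 CPM in EtOH and 285 to 405 CPM in Tet. Its members differed in direction, with *COL3A1* (log2 fold change 1.03) wholly higher and *PRRX1* (-1.02) and *CD44* (-0.39) wholly lower in Tet. By edgeR and limma-voom 0 markers of either list passed the threshold, and DESeq2 called *COL3A1* and *ISL1* (1.18) higher. These markers are named after their values were seen, and their part in the results was not tested. In bulk RNA, fewer cells of a type and less RNA per cell cannot be told apart.

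Log2 fold changes and p-values are from the quasi-likelihood F test of edgeR across all 22443 genes that passed its filter on low counts, 7 members among them, with Benjamini-Hochberg adjustment over all of them and a threshold of 0.05. By this test 0 of the 7 members tested were higher or lower, where 0.147% of all genes tested were higher and 0.0891% lower in Tet. At an unadjusted p under 0.05 there were 2 members, *TP53INP1* and *SESN1*, both higher, where 5.83% of all genes were higher and 4.94% lower. The same 2 members had no overlap between the groups, where 9.21% of all genes lay wholly higher and 8.29% wholly lower in Tet. DESeq2 called 1 member (*TP53INP1*), where it called 346 genes higher and 260 lower of all genes tested, and limma-voom called 0 members. The median log2 fold change was 0.36 over the 7 members tested and -0.01 over all genes tested, and 6 of the 7 were above 0.

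**Figure D1:**
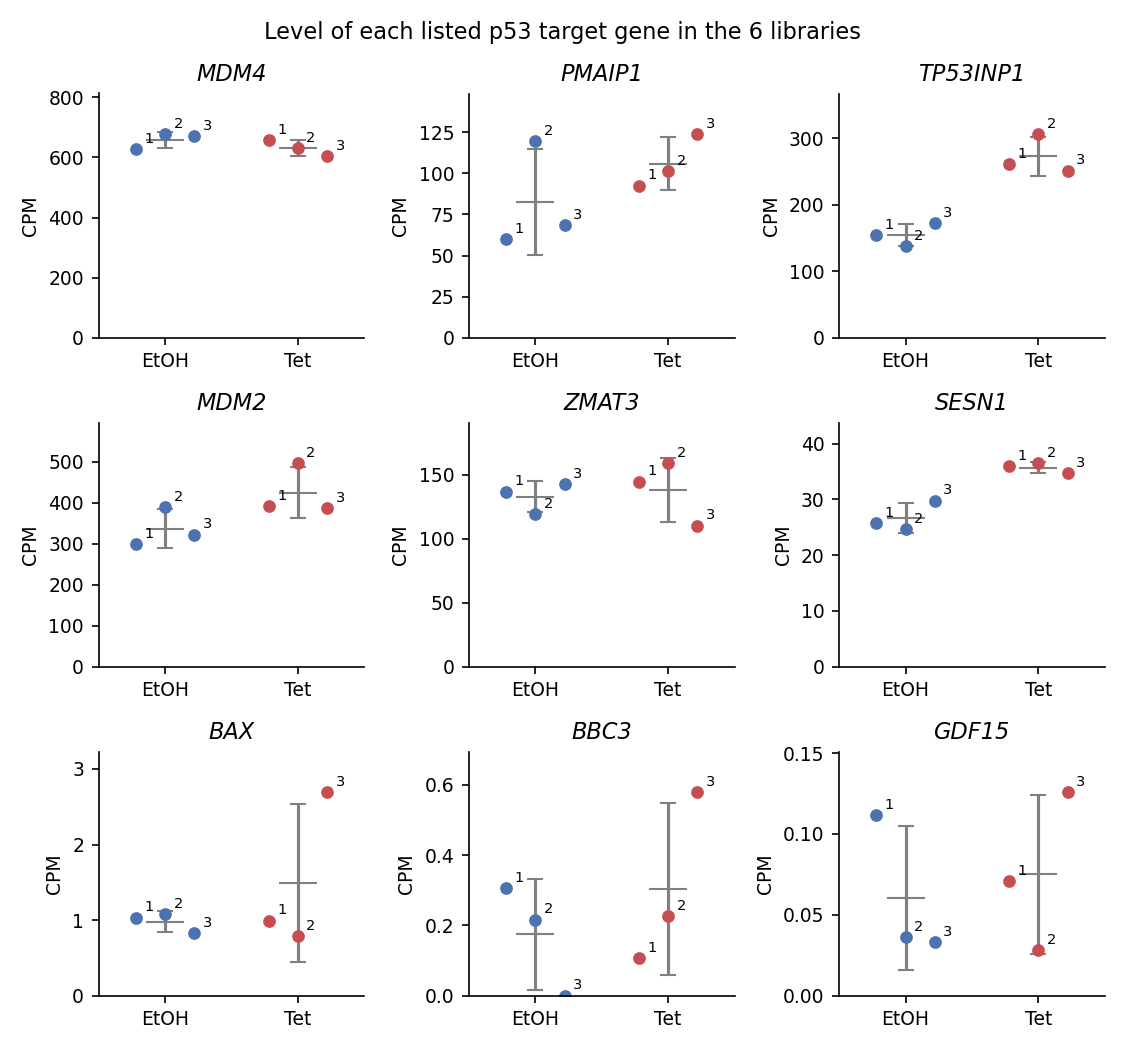
Level of each listed gene in CPM (linear axes from 0) for the 3 libraries labelled EtOH (blue) and the 3 labelled Tet (red), numbered by replicate, with the mean and SD in grey. *TP53INP1* and *SESN1* show groups that do not overlap, *MDM2* groups that overlap by a few CPM, and *BAX*, *BBC3* and *GDF15* levels under 3 CPM throughout.

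The p53 inhibitors were measured at high depth. *MDM2* (ENSG00000135679.25, chromosome 12, 68808177 to 68850686, plus strand) had 298, 390 and 322 CPM under EtOH and 392, 497 and 386 CPM under Tet, in replicate order. The groups overlapped only through EtOH replicate 2, which lay just above the lowest Tet library, and under both labels the second replicate was highest. The log2 fold change was 0.34 (SE 0.17, 95% interval -0.06 to 0.73, edgeR adjusted p = 0.546), so a rise of up to 1.65-fold lies within the interval. Leaving out 1 library gave values from 0.21 without Tet replicate 2 (edgeR adjusted p = 0.826) to 0.46 without EtOH replicate 2 (edgeR adjusted p = 0.139). Of the *MDM2* exon bases, 9.10% also lie in 3 other genes, namely a processed pseudogene on the same strand and, on the other strand, a long non-coding RNA and the carboxypeptidase gene *CPM*. Reads there were divided between the genes.

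*MDM4* (ENSG00000198625.13, chromosome 1, 204516379 to 204558120, plus strand) had 629, 678 and 671 CPM in EtOH and 657, 630 and 605 CPM in Tet, in replicate order. The groups overlapped, and the spread within each was small, with 659 ± 26.6 and 631 ± 26.2 CPM (SD, n = 3 each). Tet over EtOH came to -0.06 on the log2 scale (SE 0.13), and its 95% interval of -0.37 to 0.24 was the narrowest among the members tested (edgeR adjusted p = 0.929).

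Within a library the ratio of both inhibitors does not depend on library scaling. Per exon length, the ratio of *MDM2* to *MDM4* was 0.389, 0.471 and 0.393 under EtOH and 0.488, 0.645 and 0.523 under Tet, in replicate order. All 3 Tet libraries lay above all 3 EtOH libraries, with means of 0.418 ± 0.0461 and 0.552 ± 0.0824 (SD, n = 3 each). The mean log2 difference was 0.40 and ranged from 0.28 to 0.49 when 1 library was left out. This ratio was chosen after the values were seen and is given as a description with no test.

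Of the 3 members that act in mitochondrial cell death, *PMAIP1* was by far the highest. It codes for NOXA, a BH3-only protein that inactivates survival proteins of the BCL2 family. *PMAIP1* (ENSG00000141682.12, chromosome 18, 59899996 to 59904305, plus strand) had 60.1, 119 and 68.4 CPM in EtOH and 92.6, 102 and 124 CPM in Tet. EtOH replicate 2 was nearly as high as the highest Tet library, while the other EtOH libraries lay below all Tet libraries. On the log2 scale the difference was 0.36 (SE 0.26, 95% interval -0.24 to 0.96, edgeR adjusted p = 0.706). Single libraries moved it widely. It was 0.73 without EtOH replicate 2 (edgeR adjusted p = 0.0481), but 0.15 without EtOH replicate 1 (0.947), 0.21 without EtOH replicate 3 (0.984) and 0.24 without Tet replicate 3 (0.874).

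*BAX*, the effector that opens the outer mitochondrial membrane (ENSG00000087088.20, chromosome 19, 48954815 to 48961798, plus strand), had 1.03, 1.08 and 0.826 CPM in EtOH and 0.993, 0.790 and 2.69 CPM in Tet. A single library, Tet replicate 3, stood above the rest, and the other Tet libraries lay within the EtOH range or below it. A log2 difference of 0.61 (SE 0.50, edgeR adjusted p = 0.746) turned to -0.14 without Tet replicate 3 and was 0.16 with a correction for GC content (edgeR adjusted p = 0.907). *BBC3*, which codes for the BH3-only protein PUMA (ENSG00000105327.18, chromosome 19, 47220822 to 47232766, minus strand), had 11, 6 and 0 counts in EtOH and 3, 8 and 23 counts in Tet and did not pass the filter on low counts. Tet replicate 3 was again the highest library. In the 4 alternative fits that kept *BBC3*, the log2 fold change ran from 0.21 without EtOH replicate 3 (edgeR adjusted p = 0.998) to 1.16 without Tet replicate 1 (0.852), with 0.79 without the filter (0.784).

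The largest log2 fold change among the 7 members tested was that of *TP53INP1*, of the stress and autophagy genes. *TP53INP1* (ENSG00000164938.14, chromosome 8, 94925972 to 94949378, minus strand) had 154, 137 and 172 CPM in EtOH and 261, 306 and 251 CPM in Tet. The lowest Tet library was 79.3 CPM above the highest EtOH library, a gap wider than the range within either group. The log2 fold change was 0.82 (SE 0.16, 95% interval 0.46 to 1.18), a 1.77-fold difference, with an unadjusted p of 0.000616 and an edgeR adjusted p of 0.0892. It did not pass the threshold in the planned fit, and it passed under DESeq2 (adjusted p = 0.00286), without the filter on low counts (0.0256), with the replicate number as a block (0.0138) and without EtOH replicate 2 (0.0307). Over all alternatives the log2 fold change lay between 0.73 and 0.88, and the adjusted p between 0.00286 and 0.412. None of its exon bases is shared with another gene (0%).

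*SESN1* codes for sestrin 1, which restrains mTORC1 signalling and takes part in antioxidant defence. *SESN1* (ENSG00000080546.13, chromosome 6, 108986437 to 109094819, minus strand) had 25.8, 24.6 and 29.8 CPM in EtOH and 36.0, 36.5 and 34.7 CPM in Tet. The Tet libraries lay close together (35.7 ± 0.921 CPM, SD, n = 3), and each lay above the highest EtOH library. Its difference was 0.42 on the log2 scale (SE 0.15, 95% interval 0.07 to 0.77, edgeR adjusted p = 0.367), with 0.37 to 0.48 over all alternatives and no adjusted p under 0.163. Of its exon bases, 7.09% lie in a non-coding gene on the other strand, and the counting did not use strand.

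*GDF15*, a secreted stress cytokine of the TGF-β family (ENSG00000130513.6, chromosome 19, 18374731 to 18389176, plus strand), did not pass the filter on low counts either. It had 4, 1 and 1 counts in EtOH and 2, 1 and 5 counts in Tet, at 3 counts or fewer in 4 of 6 libraries, so a difference was not detectable at this depth (0.27, SE 1.28, edgeR adjusted p = 0.971 on the log2 scale without the filter). *ZMAT3*, a zinc finger protein that binds RNA and acts in growth control and splicing (ENSG00000172667.11, chromosome 3, 178960121 to 179072215, minus strand), had 137, 119 and 143 CPM in EtOH and 145, 159 and 110 CPM in Tet. The Tet libraries spanned the whole EtOH range. Its log2 fold change of 0.05 (SE 0.17, 95% interval -0.34 to 0.45, edgeR adjusted p = 0.956) changed sign without EtOH replicate 2 or Tet replicate 2.

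**Figure D2:**
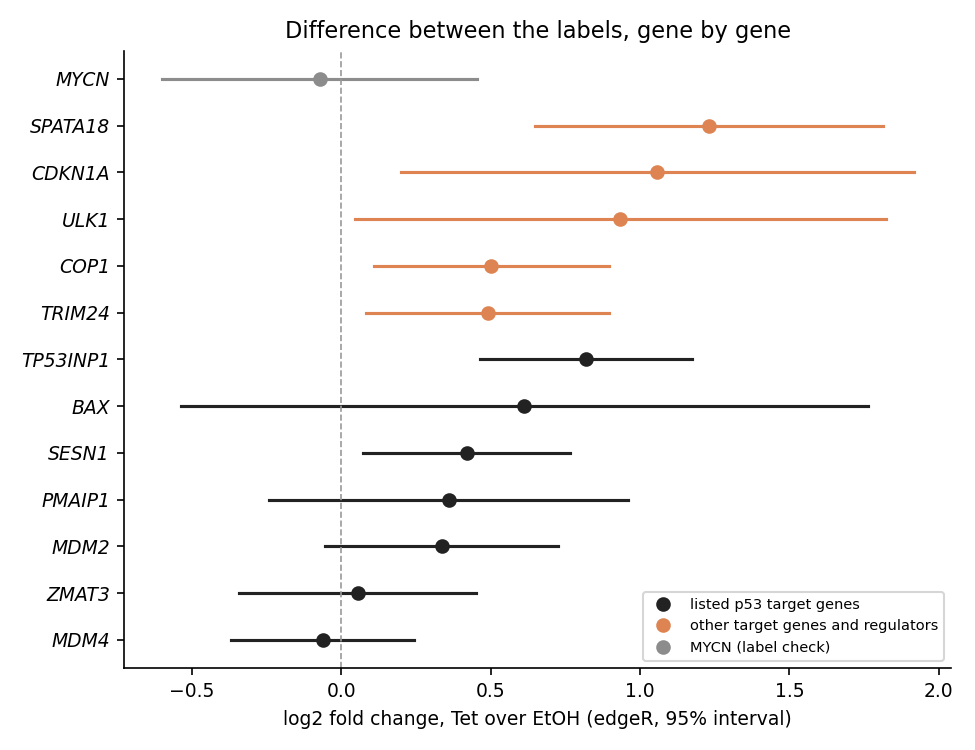
Log2 fold change of Tet over EtOH (points) with its 95% interval (lines) from edgeR for the 7 listed genes tested (black), 5 other target genes and regulators (orange) and *MYCN* (grey). The orange genes were picked for groups without overlap and an unadjusted edgeR p under 0.05, so their intervals exclude 0 by that choice. The median log2 fold change was 0.07 over the 37 other target genes tested and 0.02 over the 12 regulators. The intervals of *TP53INP1* (0.46 to 1.18) and *SESN1* (0.07 to 0.77) lie above 0 before adjustment over all genes, while that of *MDM4* spans 0.

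Levels of different genes were compared as TPM, counts per exon length scaled to a common total. In libraries labelled EtOH the order of mean levels was *MDM4* (167 TPM, range 154 to 182), *PMAIP1* (107 TPM, 74.2 to 161), *TP53INP1* (76.1 TPM, up to 82.9) and *MDM2* (70.2 TPM, 59.8 to 85.6). *ZMAT3* (32.8 TPM, 31.2 to 34.4), *SESN1* (14.5 TPM, 13.6 to 15.8), *BAX* (1.06 TPM, 0.869 to 1.24), *BBC3* (0.154 TPM, 0 to 0.260) and *GDF15* (0.0795 TPM, 0.0431 to 0.144) followed, each over 3 libraries. The ranges of *MDM4* and *PMAIP1*, of *PMAIP1* and *TP53INP1* and of *TP53INP1* and *MDM2* overlapped, as did those of *BBC3* and *GDF15*, whereas *ZMAT3*, *SESN1*, *BAX* and *BBC3* each lay wholly below the gene before them. In libraries labelled Tet, *TP53INP1* (129 ± 19.6 TPM) was level with *PMAIP1* (128 ± 9.44 TPM) and its lowest library was above the highest of *MDM2* (84.2 ± 15.3 TPM). By mean TPM over 6 libraries *MDM4* was at rank 467 of all genes and *MDM2* at rank 1420, against rank 19407 for *BAX*. The exon length covers every annotated isoform, so the TPM of *MDM2* and *MDM4*, with 13448 and 11008 exon bases, is a low estimate.

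The members fell into the same groups by base composition. *BAX*, *BBC3* and *GDF15* had exon GC contents of 60.0% to 64.4%, and the other 6 members 39.4% to 43.4%. Level followed GC content across all genes tested as well: from the lowest to the highest decile of genes by GC content, the median level fell from 18.5 to 0.812 TPM. *BAX*, at 1.27 TPM over all libraries, lay between the median and the upper quartile (1.88 TPM) of the highest decile, while *BBC3* (0.198 TPM) and *GDF15* (0.0863 TPM) were below its lower quartile (0.424 TPM). *MDM4*, *PMAIP1*, *TP53INP1* and *MDM2* were above the upper quartile of genes of like GC content. The part of GC content in the low levels was not tested.

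**Figure D3:**
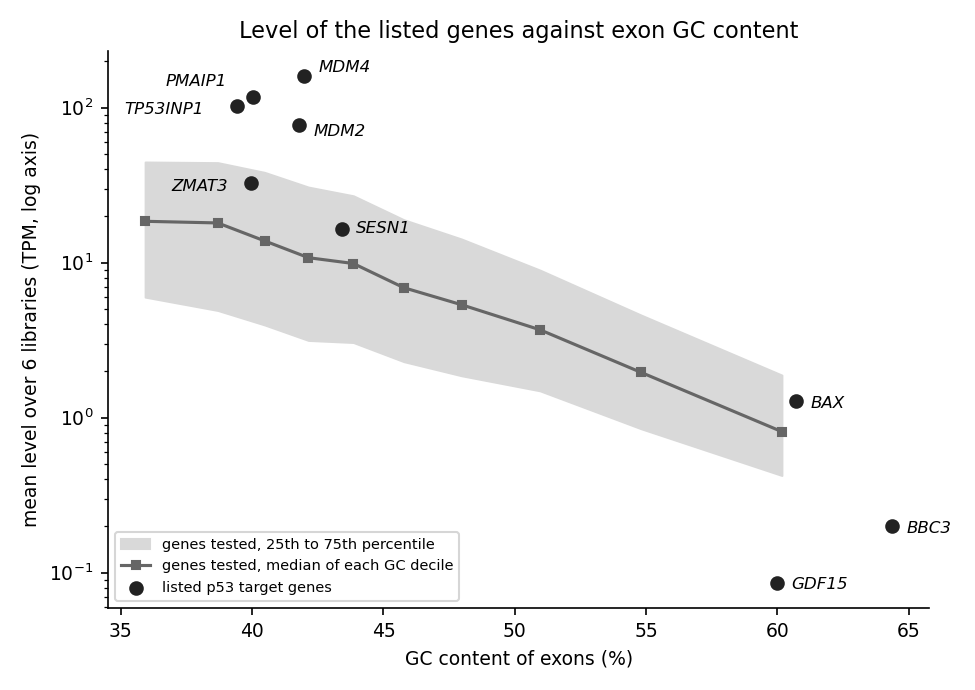
Mean TPM over the 6 libraries (log axis) against exon GC content in percent. Black points are the 9 listed genes, grey squares the median of each decile of the 22443 genes tested and the grey band their middle quartiles. The 3 genes of lowest level lie at 60.0% GC or more, where the median of all genes has fallen to 0.812 TPM.

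Established p53 target genes beyond the members were read from 5 lists holding 51 genes, of which 37 were tested. By edgeR 0 passed the threshold in either direction, and 3 were higher and 0 lower at an unadjusted p under 0.05 (5.83% and 4.94% over all genes). Of these target genes limma-voom called 0 and DESeq2 called 1 (*SPATA18*), among the 346 genes DESeq2 called higher. Their median log2 fold change was 0.07, with 25 above and 12 below 0, where 11069 of all 22443 genes tested were above 0. In 7 genes all Tet libraries lay above all EtOH libraries, and in 0 genes below, where over all genes the shares were 9.21% and 8.29%. These were *CDKN1A*, *SPATA18*, *ULK1*, *CASP8*, *EDA2R*, *TRIAP1* and *PPM1D*, of which the last 4 did not reach an unadjusted p of 0.05 and are named after their values were seen.

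By function, 8 of 9 tested genes of apoptosis and death receptors had a log2 fold change above 0, against 11069 of all 22443 genes tested. The median of these 9 genes was 0.61, and 0 were below an unadjusted p of 0.05. The 3 largest values, named after they were seen, were those of *PIDD1* (1.66, SE 0.80), *PHLDA3* (1.03, SE 0.63) and *TP53I3* (0.87, SE 0.42). Their means over 6 libraries were 0.466, 0.886 and 2.16 CPM, so *PIDD1* and *PHLDA3* were under the 1 CPM set for naming. Tet replicate 3 was the highest library in each of them, and their GC contents were 65.8%, 58.3% and 56.1%. Of 15 genes in this list 6 were not tested, and the decoy and death receptor genes *TNFRSF10A* and *TNFRSF10C* were at 0 in all libraries. Genes of growth arrest (median 0.04 over 6 genes), of metabolism, redox and autophagy (0.05 over 8) and of feedback and signalling (0.07 over 8) were centred near 0, and the median over 6 DNA repair genes was -0.08.

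*SPATA18* codes for a p53-induced protein of mitochondrial quality control. It had 5.83, 6.96 and 5.39 CPM in EtOH and 13.8, 18.4 and 10.5 CPM in Tet, with no overlap. Its log2 fold change was 1.23 (adjusted p = 0.113 by edgeR, SE 0.26), with adjusted p-values from 0.00334 (DESeq2) to 0.529 (without EtOH replicate 3) over the alternatives. Like *TP53INP1*, it passed the threshold under DESeq2, without the filter, with the block and without EtOH replicate 2.

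*CDKN1A*, which codes for the cell cycle inhibitor p21, had 4.31, 2.20 and 3.44 CPM in EtOH and 5.65, 4.70 and 10.4 CPM in Tet. All Tet libraries were above all EtOH libraries, with Tet replicate 3 well above the others. This gave a log2 fold change of 1.06 (adjusted p = 0.354 by edgeR, SE 0.38), and without Tet replicate 3 it was 0.64. *ULK1*, a kinase that starts autophagy, behaved alike, with 2.12, 1.88 and 2.05 CPM in EtOH and 2.59, 2.68 and 6.27 CPM in Tet. Its log2 fold change of 0.93 (adjusted p = 0.438 by edgeR, SE 0.39) was 0.39 without Tet replicate 3.

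Both of these genes are rich in GC, with 57.5% in *CDKN1A* and 63.6% in *ULK1*. Among the decile of genes highest in GC content, above 57.3%, 72.7% had a log2 fold change above 0, with a median of 0.32, whereas the medians of the other deciles lay between -0.08 and 0.02. The median level of these genes was 1.94 CPM in Tet replicate 3 and 0.757 to 1.12 CPM in the other libraries. With each library corrected for its own trend on GC content, a step added after seeing the data, the log2 fold change was 0.91 for *CDKN1A* (edgeR adjusted p = 0.131), 0.45 for *ULK1* (0.462) and 0.79 for *TP53INP1* (0.0943). *TP53INP1* lies at 39.4% GC and *SPATA18* at 43.4%, in deciles whose medians were -0.01 and -0.03.

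**Figure D4:**
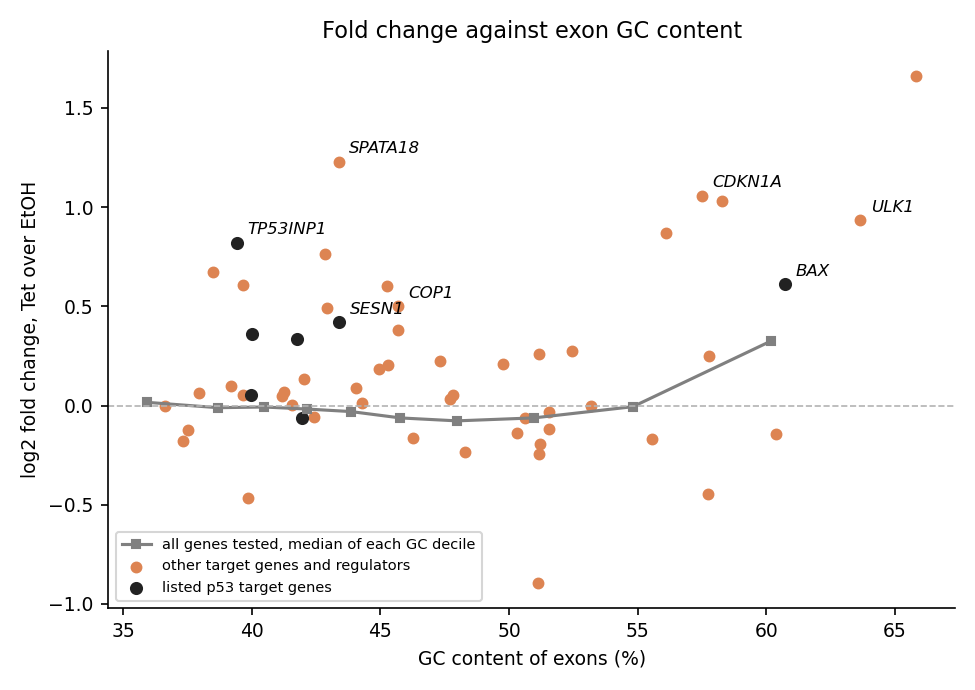
Log2 fold change of Tet over EtOH against exon GC content in percent for the 7 listed genes tested (black) and the 49 other target genes and regulators tested (orange), with the median of each decile of all genes (grey). The grey line is near 0 up to its last point, at 0.32. *CDKN1A* (1.06), *ULK1* (0.93) and *BAX* (0.61) belong to the GC decile of that point and lie above the line.

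Of 12 regulators of the p53 pathway, all were tested and 0 passed the threshold by edgeR, limma-voom or DESeq2, with 2 higher and 0 lower at an unadjusted p under 0.05 (5.83% and 4.94% over all genes). Both of these code for ubiquitin ligases that target p53. *COP1* had 124, 151 and 125 CPM in EtOH and 192, 218 and 156 CPM in Tet, with a log2 fold change of 0.50 (adjusted p = 0.332 by edgeR, SE 0.17). *TRIM24* had 214, 262 and 205 CPM in EtOH and 322, 372 and 263 CPM in Tet, with 0.49 (SE 0.18, edgeR adjusted p = 0.368). The groups did not overlap, though by only 0.922 CPM in *TRIM24*. *EP300*, the coactivator that acetylates p53, named after its values were seen, also had no overlap (95.5 to 118 CPM in EtOH and 121 to 135 CPM in Tet), with an edgeR adjusted p of 0.654. These 3 regulators without overlap compare with 9.21% of all genes wholly higher in Tet.

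The levels of 12 proliferation genes, several of which p53 is known to lower indirectly, were read beside these results. All 12 log2 fold changes were below 0, with a median of -0.35, where 11374 of all 22443 genes tested were below 0. By edgeR 0 passed the threshold, and 1 (*CCNB1*) was lower at an unadjusted p under 0.05 (4.94% over all genes). DESeq2 and limma-voom called 0. With the replicate number as a block, *CCNB1* was among 254 genes called lower. Their summed level was 1839 to 2849 CPM in EtOH and 1575 to 2121 CPM in Tet, and the second replicate was highest under both labels. Their part in the differences of *TP53INP1* and *SPATA18* was not tested.

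The members did not vary as 1 block across the 6 libraries. On the log2 scale *TP53INP1* and *SESN1* varied together (Pearson r = 0.977), *MDM2* with *PMAIP1* (0.721) and *TP53INP1* (0.709), and *BAX* against *ZMAT3* (-0.833). These values are a description over 6 libraries that share the groups and the position along the first component. Among 10089 other genes tested with a mean of at least 5 CPM, those most like *MDM2* were *CYP20A1* (r = 0.999), *COLEC12* (0.998) and *TLE4* (0.998). *CYP20A1*, for example, had 25.1, 33.0 and 27.0 CPM in EtOH and 33.6, 43.0 and 33.2 CPM in Tet, with replicate 2 highest in each label as in *MDM2*.

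**Figure D5:**
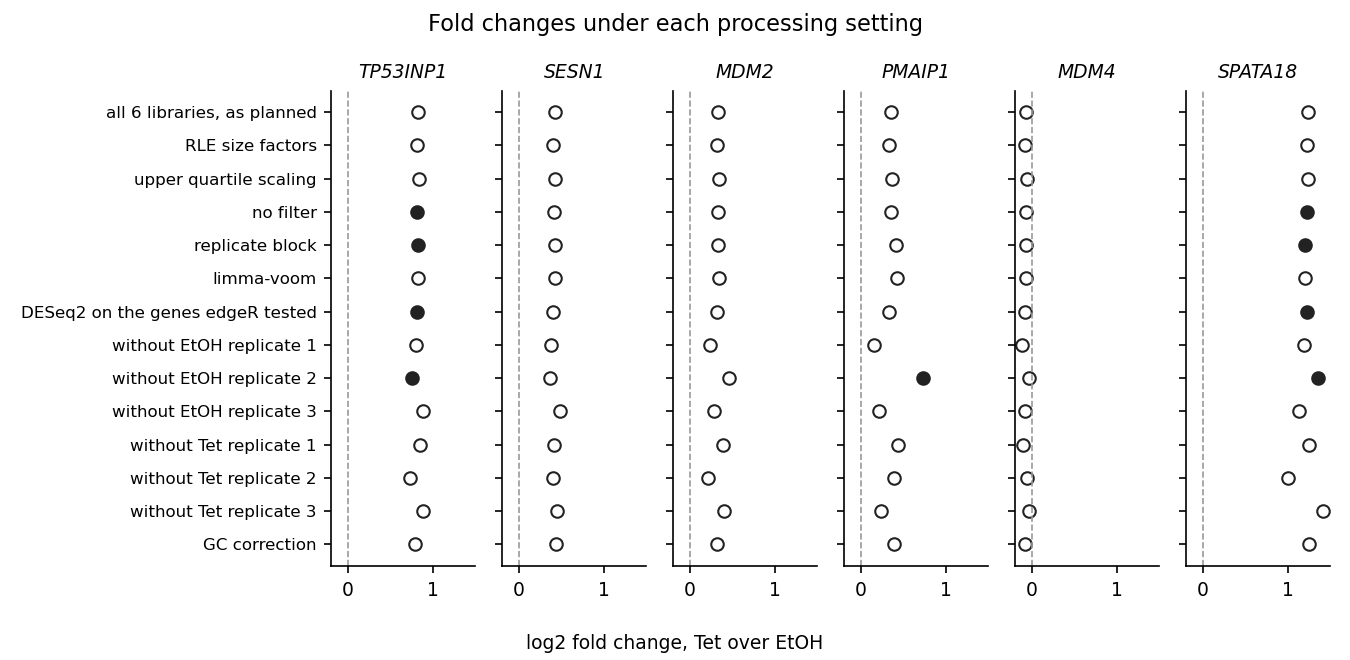
Log2 fold change of Tet over EtOH for 6 genes (columns) under each processing setting (lines). Filled points have an adjusted p under 0.05. *TP53INP1* stays between 0.73 and 0.88 and *MDM4* between -0.12 and -0.03, while filled points appear in *TP53INP1* and *SPATA18* under 4 settings and in *PMAIP1* without EtOH replicate 2.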

How the data were processed

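Total RNA from 3 libraries labelled EtOH and 3 labelled Tet was sequenced. Per the file headers, the authors counted uniquely aligned read pairs per gene with featureCounts without strand and divided reads shared by overlapping genes, so the deposited values are estimated counts that need not be whole. The submitters' notes name STAR 2.7.1a, featureCounts 1.5.1 and GRCh38, whereas the headers of all 6 files give featureCounts 1.6.4. The study's methods describe stranded counting with multi-mapping reads, which the headers do not show. Totals were 27933378 to 40498065.

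Counts were rounded to whole numbers and fitted with edgeR 4.0.16 in R 4.3.3 (TMM, filterByExpr, quasi-likelihood F test, Benjamini-Hochberg over 22443 genes, threshold 0.05). Alternatives were DESeq2 1.42.0, limma-voom (limma 3.58.1), RLE and upper quartile scaling, no filter, a replicate block, leaving out each library and, added after seeing the data, a correction for GC content in 20 bins. The fit was tested on simulated data without a trend on GC content or an outlying library, so that test does not cover these features. GC content and overlaps came from GRCh38 and the exon coordinates in the files. The study's methods give 3 independent biological replicates as the rule for in vitro work, while the sample titles give only a replicate number. The p-values measure the spread between these libraries, and floors of 3 counts cover counting error only.

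All 9 members are named. Other target genes and regulators are named where they had a mean of at least 1 CPM and passed the threshold, or had groups without overlap and an unadjusted p under 0.05. The genes most like *MDM2* were those of highest Pearson r on log2(CPM + 0.5). The members and lists were chosen with earlier results of these data known. The gene for p53 itself is not reported here.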

Additional observations from a re-analysis of the deposited data

How the results depend on the processing

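Where the planned test called 33 genes higher and 20 lower in Tet, the counts were 185 and 117 without the filter, 346 and 260 with DESeq2, 77 and 48 with the GC correction (chosen after seeing the data), and 13 lower with RLE scaling. Leaving out 1 library gave 0 to 361 higher and 0 to 331 lower, both highest without EtOH replicate 2. The cause was not tested. Members called higher numbered 1 without the filter and with DESeq2, and 0 to 2 leaving out 1 library, the 2 being *TP53INP1* and *PMAIP1* without EtOH replicate 2. Other p53 target genes called higher numbered 1 without the filter and with DESeq2, and 0 to 1 leaving out 1 library. With the replicate number as a block, 421 genes were higher and 254 lower, with 1 member (*TP53INP1*) and 2 other target genes (*SPATA18* and *KITLG*) among the higher. Deviations of libraries with the same number correlated at 0.0603, 0.510 and 0.219, and the labels tie the numbers to no shared batch, so they are not taken as pairs. Leaving out 1 library moved *BAX* between -0.14 (without Tet replicate 3) and 0.92 on the log2 scale, and *ZMAT3* between -0.058 (without Tet replicate 2) and 0.20, with -0.012 without EtOH replicate 2. Of 156 values of single genes under the alternatives, 3 reversed, 9 newly passed the threshold and 144 did neither. None of these genes passed the threshold in the planned fit, so no call could be lost. *BBC3* and *GDF15* did not pass the filter on low counts in the planned fit and have no value there.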
